A study of Mus musculus with 27 samples.

Results

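The genes described here are 9 genes of B cells and of plasma cells, the antibody-secreting cells into which B cells mature: *Cd79a*, *Cd79b*, *Ms4a1*, *Cd22*, *Pax5*, *Tnfrsf13c*, *Mzb1*, *Jchain* and *Tnfrsf17*. They were found by symbol among the 36333 genes of the deposited expression table, and all 9 were present. The table holds RNA-seq values of 27 samples from male *Mlx*KO mice, taken from liver, omental (abdominal) adipose tissue and skeletal muscle, with 4 samples per tissue at 5 months of age and 5 per tissue at 20 months. All 6 groups had the same genotype, *Mlx*KO, from crossing B6.129 mice that carry cre/ERT2 in the Gt(ROSA)26Sor locus to *Mlx* Flox/Flox mice. All had been given tamoxifen in corn oil by 5 daily intraperitoneal injections of 75 mg/Kg at weaning, once they weighed at least 15 g. Tamoxifen activates the Cre recombinase, which is driven here by the ubiquitously expressed ROSA26 locus, so that the deletion of *Mlx* was not limited to any cell type. Samples of WT mice were not analysed here, and each difference below is one between ages or tissues of *Mlx*KO mice. At 5 months the same 4 mice gave all 3 tissues (mice A, B, C and D here, labelled X5F4299, X5F5001, X5F5238 and X5F5239 for adipose tissue), whereas each sample at 20 months had its own number and was treated as a separate mouse. The codes of the older samples begin with X18, although their labelled age is 20 months. For tissues whose numbers end in the same digits, the study's supplement gives the age in that code and not the labelled one.

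B cells recognise antigen through a membrane antibody that signals through the paired proteins Cd79a and Cd79b. The transcription factor *Pax5* holds cells in the B lineage and is switched off when they become plasma cells, which instead make large amounts of antibody, the joining chain *Jchain* and the secretory chaperone *Mzb1*. In the omentum, B cells and plasma cells gather in lymphoid clusters of the fat called milky spots or fat-associated lymphoid clusters, and in liver and muscle they are few and lie scattered or within vessels. A whole-tissue RNA value cannot tell fewer cells of a type from less RNA in each of them.

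Each sample had 14384695 to 25673919 reads on genes, and every value was a whole multiple of the value of 1 read in its sample, within a tolerance of 0.02. Values are the deposited ones, reads scaled per sample, and are given without a unit below. The targeted gene, *Mlx* (chr11:101086707-101092207), had 101 to 522 reads in a sample, with mean values of 28.98 ± 3.47 (SD, n = 4) and 23.9 ± 3.79 (n = 5) in liver at 5 and 20 months, 9.12 ± 1.26 and 10.6 ± 2.09 in adipose tissue, and 9.41 ± 1.89 and 10.3 ± 0.800 in muscle. A gene-level value does not separate the deleted exons from the rest of the gene, so these values do not measure excision. By qRT-PCR the study found more *Mlx* expression left in muscle than in liver or adipose tissue of the same young mice, relative to WT. The tissue labels held against their defining markers: albumin (*Alb*) averaged 96938 and 55182 in liver and at most 68.9 in a group of another tissue, adiponectin (*Adipoq*) 777 and 1022 in adipose tissue and at most 11.6 elsewhere, and muscle creatine kinase (*Ckm*) 21865 and 23541 in muscle and at most 48.3 elsewhere. Genes that reached a value of 1 in 4 or more of the samples compared were tested with limma on log2(value + 1), with Benjamini-Hochberg adjustment over all of them and a threshold of 0.05. On this scale the change of a gene with low values is understated. Where nothing says that samples came from separate cultures or litters, p-values measure the spread among these animals only.

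In the annotation of GRCm38.p6, the build named in the submitters' processing notes, the members lie on 8 chromosomes. *Cd79a* (chr7:24897497-24901858), *Cd79b* (chr11:106311341-106314562), *Jchain* (chr5:88519809-88527897), *Tnfrsf13c* (chr15:82221742-82224380), *Tnfrsf17* (chr16:11313232-11320074) and *Cd22* (chr7:30865404-30880342) overlap no other annotated gene. *Ms4a1* (chr19:11249679-11266149) overlaps *4930526L06Rik*, and *Pax5* (chr4:44524748-44710694) overlaps *Mir5120*, *Gm12462* and *5730488B01Rik*, so that reads of these could not be told apart from theirs if the counting did not use the strand. RefSeq promoter sequence was at hand for 6 of the 9 members, not for *Cd79b*, *Ms4a1* or *Mzb1*. The 250 bases before the RefSeq start of 3 members are shown, 5′ to 3′ on the gene's strand, because these genes rose in adipose tissue and 1 of them, *Cd22*, was the only one of the 6 to hold a motif searched for. The capitals in *Cd22* mark that motif, a match to the palindrome that the early B cell factor *Ebf1* binds (TCCC, any 2 bases, GGGA).
Cd79a (chr7:24897247-24897496, plus strand): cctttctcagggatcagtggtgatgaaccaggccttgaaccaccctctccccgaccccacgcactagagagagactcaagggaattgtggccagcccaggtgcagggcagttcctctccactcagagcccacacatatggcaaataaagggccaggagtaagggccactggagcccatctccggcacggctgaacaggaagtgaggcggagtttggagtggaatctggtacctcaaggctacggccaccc
Cd22 (chr7:30879029-30879278, minus strand): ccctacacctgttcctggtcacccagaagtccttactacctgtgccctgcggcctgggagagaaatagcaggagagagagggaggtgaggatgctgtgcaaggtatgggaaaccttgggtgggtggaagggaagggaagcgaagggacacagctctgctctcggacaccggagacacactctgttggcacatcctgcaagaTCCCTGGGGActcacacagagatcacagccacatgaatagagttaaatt
Tnfrsf13c (chr15:82224381-82224630, minus strand): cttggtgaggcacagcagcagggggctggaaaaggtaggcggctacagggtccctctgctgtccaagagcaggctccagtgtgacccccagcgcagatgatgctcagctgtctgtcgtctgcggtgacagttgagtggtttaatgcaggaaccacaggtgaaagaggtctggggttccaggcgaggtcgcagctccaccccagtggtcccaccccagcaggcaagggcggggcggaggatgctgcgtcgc
The *Cd22* window lies before the start of a shorter transcript, inside the annotated span of the gene. From 250 bases before to 50 after the start, on both strands, the *Ebf1* palindrome occurred in 0.904% of 32851 mouse promoters. The octamer ATGCAAAT, read by the Oct factors of B cells, occurred in 1.74% of them, and the E box CACGTG, to which *Mlx* binds with its partners, in 7.15%. Neither was in any of the 6 member windows, which says only that these letters are not in those bases.

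In omental adipose tissue the members were higher at 20 than at 5 months. This comparison asks how the tissue of *Mlx*KO mice changed with age. The means of all 9 members were higher at 20 months, by 2.43 to 14.3 times with a median of 8.48 times, and 8 members passed the filter on low values. Of these 8, 7 rose by limma, where 9.75% of all 14005 genes tested rose. Among the 7, *Tnfrsf13c* had no young value of 1 and passed the filter only through the older samples, where it is high. *Cd79a*, *Ms4a1* and *Pax5* had young values under 1 and also needed older samples to pass the filter. The calls of *Tnfrsf13c* and of these genes are thus no support for a rise of the members as a group. *Cd79b*, *Cd22* and *Mzb1* reached 1 in every young sample. Every 20-month value lay above every 5-month value for 2 of the 9, *Cd22* and *Tnfrsf13c*, a pattern shown by 8.30% of the genes tested.

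The antigen receptor genes came first. *Cd79a* had values of 4.18, 0.887, 3.09 and 1.46 in mice A, B, C and D, and of 31.4, 2.92, 42.5, 13.1 and 39.8 in replicates 36 to 40. The groups met only through replicate 37, which lay below 2 of the young mice. The mean rose 10.8 times, from 2.40 ± 1.51 to 25.9 ± 17.3, a log2 change of 2.67 (SE 0.68, limma adjusted p = 0.0312, exact two-sided permutation p = 0.0476).
*Cd79b*, its partner, had 4.28, 1.07, 2.49 and 1.98 at 5 months and 25.02, 3.504, 31.8, 10.4 and 33.3 at 20 months. Replicate 37 was again the only older sample within the young range. The log2 change was 2.40 (SE 0.58, limma adjusted p = 0.0281), and the ratio of the means was 8.48. The 2 genes kept close to each other in each adipose sample, with *Cd79a* at 0.735 to 1.34 times *Cd79b*.

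The surface receptors of mature B cells were also lowest in replicate 37 among the older samples. *Ms4a1*, which encodes the B cell surface protein CD20, had 2.49, 0.111, 1.59 and 0.902 at 5 months and 17.8, 2.14, 18.8, 7.05 and 44.2 at 20 months, 14.1 times higher on average (log2 change 2.67, SE 0.68, limma adjusted p = 0.0316). *Cd22*, an inhibitory co-receptor that damps the antigen receptor, had 6.54, 2.44, 5.57 and 2.33 at 5 months and 21.3, 7.09, 35.8, 15.3 and 39.4 at 20 months. Its groups did not overlap, although replicate 37 lay just above mouse A. The mean of *Cd22* went from 4.22 ± 2.16 to 23.8 ± 13.6, a log2 change of 2.13 (SE 0.47, limma adjusted p = 0.0230, exact two-sided permutation p = 0.0159, the smallest that 4 against 5 samples can give).
*Tnfrsf13c*, the receptor for the B cell survival factor BAFF, had 0.798, 0.148, 0.498 and 0.291 at 5 months and 4.86, 1.67, 8.09, 2.48 and 13.98 at 20 months. The groups did not overlap, and the ratio of the means, 14.3, was the highest of the 9 members. Its log2 change was 2.07 (SE 0.46, limma adjusted p = 0.0227). *Pax5*, the lineage factor, had 2.17, 0.148, 1.19 and 0.378 at 5 months and 11.3, 1.32, 8.42, 3.75 and 16.5 at 20 months, with replicate 37 inside the young range (log2 change 2.03, SE 0.57, limma adjusted p = 0.0384).

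*Mzb1* passed the test and *Jchain* did not. *Mzb1* (chr18:35647265-35650266, overlapping no other gene) had 2.94, 1.29, 1.33 and 1.72 at 5 months and 10.1, 1.67, 12.6, 6.16 and 19.1 at 20 months, and rose by 1.70 on the log2 scale (SE 0.50, limma adjusted p = 0.0440). *Jchain*, which links antibody units into the secreted dimers and pentamers of IgA and IgM, had 81.2, 7.46, 37.9 and 24.3 at 5 months and 94.8, 15.5, 128, 101 and 185 at 20 months. The other 4 older samples lay above every young one, and the groups met only through replicate 37, which fell below 3 of the young mice. The mean of *Jchain* was 37.7 ± 31.5 at 5 months and 104.7 ± 61.3 at 20 months, and its log2 difference of 1.52 (SE 0.77) did not pass the test (limma adjusted p = 0.166, exact two-sided permutation p = 0.159). *Tnfrsf17*, the plasma cell receptor known as BCMA, had at most 22 reads in a sample and was not tested by limma. Its values were 0.319, 0.0739, 0.0995 and 0.291 at 5 months and 0.177, 0.856, 0.357, 0.516 and 0.478 at 20 months, and replicate 37 was the highest of the 9 samples, unlike in any other member (exact two-sided permutation p = 0.0635).

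**Figure D1:**
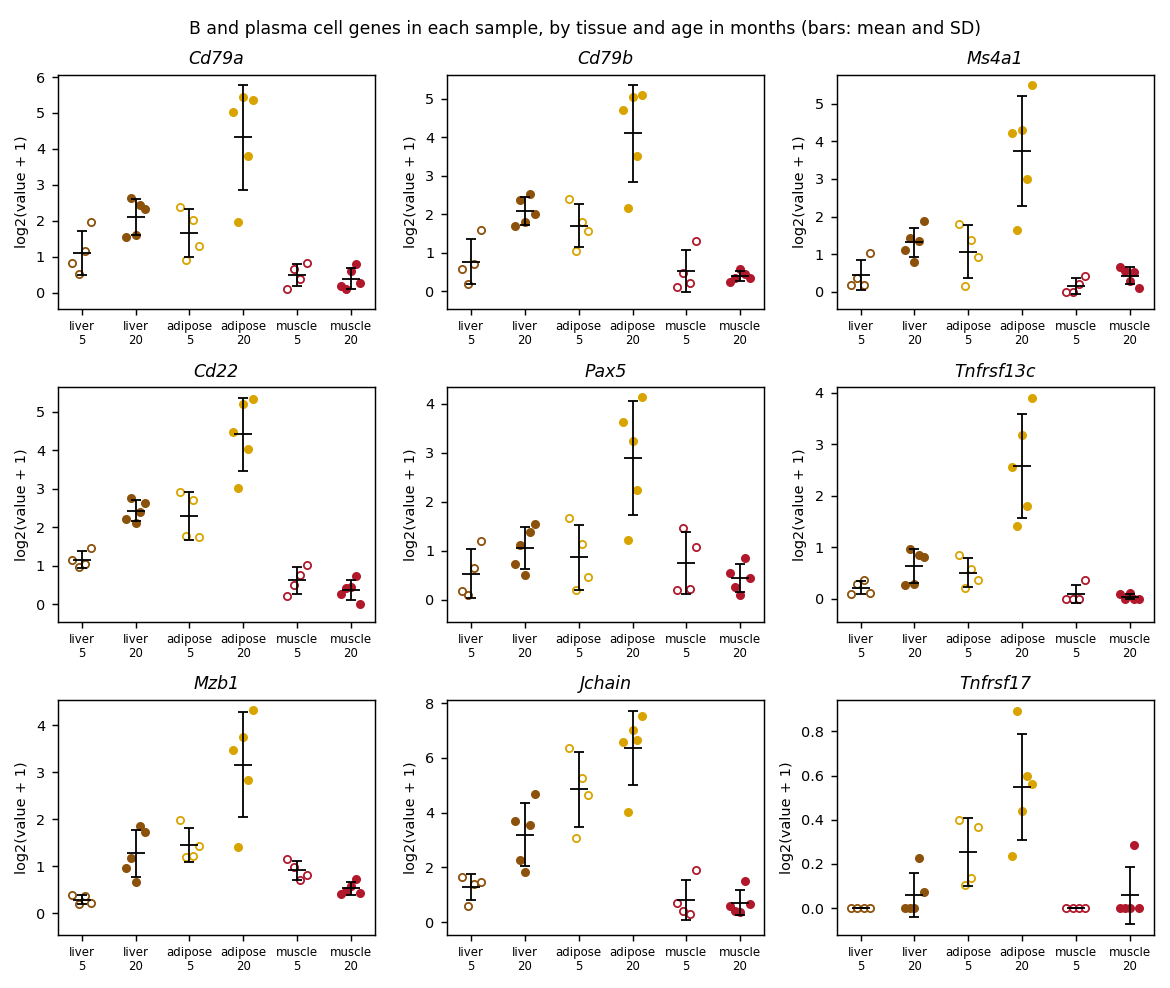
Each panel shows 1 member as log2(value + 1) in every sample of the 3 tissues at 5 months (open circles) and 20 months (filled circles), with bars for the mean and SD of a group. In adipose tissue the 20-month samples reach the highest values for all 9 members, and the lowest filled adipose circle of every panel but Tnfrsf17 is replicate 37.

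The older adipose samples differed strongly from each other. Over the 8 members other than *Tnfrsf17*, replicate 37 had the lowest 20-month value for 8 of 8, and replicate 40 the highest for 7. The summed value of the 8 members was 35.8 in replicate 37 and 159 to 391 in the other 4. Among the young mice, A was highest for 8 of 8, with a sum of 104.6, and B was lowest for 7, with a sum of 13.6. The calls rested on these samples. Without mouse B, 0 of the 8 passed the limma threshold, with adjusted p-values of 0.0616 or more, and without mouse A only 1 passed. Without replicate 38, 39 or 40 there were 2, and without replicate 37 there were 7. Over all genes the count called also fell, from 2674 to 596 without mouse B and to 397 without mouse A. No direction changed in any of the 9 fits that left out a sample, and *Cd22* and *Tnfrsf13c* kept their calls in 8 and 7 of them.

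**Figure D2:**
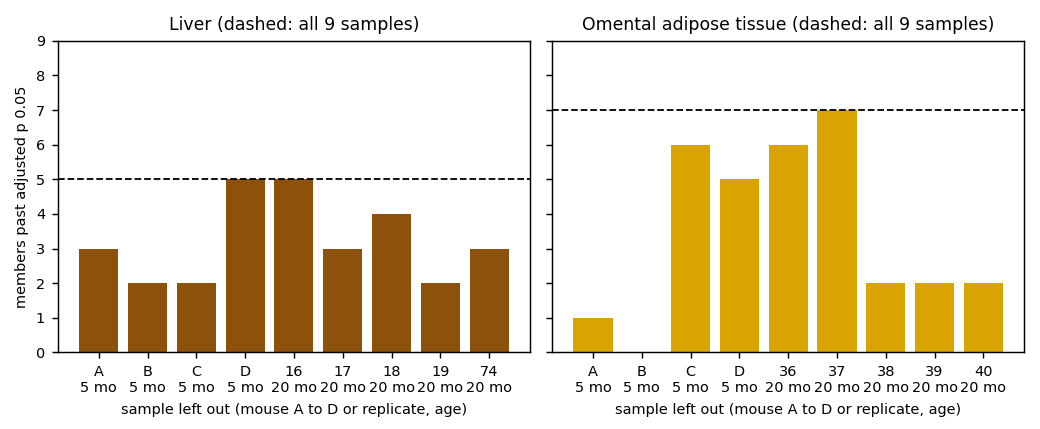
Bars give the number of members past a limma adjusted p of 0.05 when the sample under the bar was left out, for liver (left) and omental adipose tissue (right), and the dashed line gives the number with all 9 samples. In adipose tissue the count falls from 7 to 0 without mouse B and to 1 without mouse A, and in liver it stays between 2 and 5.

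Genes of other cells moved in the same adipose samples. The T cell list summed to 12.9 to 27.8 at 5 months and to 14.2 in replicate 37 against at least 33.0 in the other older samples, up to 109.4. The macrophage list summed to 792 to 1531 at 5 months and to 935 to 4900 at 20 months, and there replicate 37, at 3124, was not the lowest. The mesothelium list went the other way, from 56.6 to 125.1 at 5 months to 30.6 to 73.1 at 20 months, while the adipocyte list was at 5886 to 13229 and 8562 to 12823. Of the genes that mark the high endothelial vessels of lymph nodes, *Glycam1* had 41 reads in replicate 40, a value of 1.22, at most 0.0590 in the other older samples and 0 in the young ones. *Madcam1* was at or under 0.222 in all 9, and *Chst4* at 0.268 to 0.445 in the older samples and 0.495 to 0.924 in the young ones. Replicate 40 was thus the sample highest in *Glycam1* and in 7 members. Without it the log2 changes of the 7 called members were 1.41 to 2.41 and those of *Cd22* (adjusted p = 0.0474) and *Tnfrsf13c* (0.0388) passed. The part of these other cells in the members' values was not tested.

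**Figure D3:**
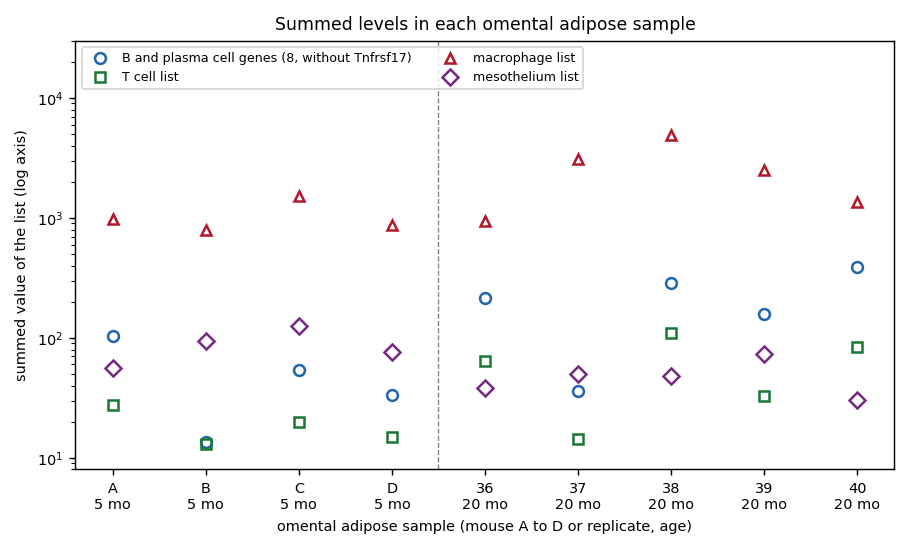
Summed values on a log axis in each omental adipose sample, left of the dashed line at 5 months and right of it at 20 months, for the 8 members without Tnfrsf17, the T cell list, the macrophage list and the mesothelium list. The members and the T cell list are both low in replicate 37 at 20 months, where the macrophage list is at 3124.

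In liver the members were also higher at 20 months, at lower values. The means of all 9 were higher at 20 months, and for the 8 with reads at both ages the ratio was 2.24 to 7.08. Of the 6 members that passed the filter, 5 rose by limma, against 10.03% of the 12654 genes tested. Among the young livers, *Cd79b* and *Ms4a1* reached 1 only in mouse D, at 1.999 and 1.04. They met the filter through the older livers, where they are high. *Cd79a*, *Cd22* and *Jchain* also had young livers under 1 and needed older livers to meet it. The 5 calls are thus no support for a rise of the members as a group. *Cd79b*, *Cd22*, *Mzb1* and *Jchain*, 4 of the 9, had no overlap between the ages, and 8.46% of the genes tested had every older value above every younger one.

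*Cd22* changed most evenly. It had 1.21, 0.946, 1.07 and 1.76 in the 4 young livers and 3.61, 5.76, 3.34, 4.26 and 5.21 in replicates 16, 17, 18, 19 and 74, with no overlap and a ratio of the means of 3.56 (log2 change 1.27, SE 0.18, limma adjusted p = 0.00605). *Cd79b* had 0.509, 0.145, 0.642 and 1.999 against 2.24, 4.16, 2.49, 4.77 and 3.01, again without overlap, though mouse D came near the lowest older sample (log2 change 1.31, SE 0.28, limma adjusted p = 0.0142). Both passed in each of the 9 fits that left out a sample.
*Cd79a* had 0.764, 0.436, 1.21 and 2.88 at 5 months and 1.93, 5.21, 2.02, 4.37 and 4.01 at 20 months, where mouse D lay above 2 older livers. Its log2 change of 0.995 (SE 0.32) was at the threshold (limma adjusted p = 0.04997) and passed in 2 of the 9 fits without a sample. *Ms4a1* had 0.127, 0.291, 0.143 and 1.04 against 1.17, 1.70, 0.742, 1.53 and 2.66, with mouse D above replicate 18 (log2 change 0.87, SE 0.26, limma adjusted p = 0.0368), and passed in 3 of the 9. *Pax5*, at 0.0727 to 1.28 in the young and 0.424 to 1.90 in the older livers, did not pass (log2 difference 0.52, SE 0.29, limma adjusted p = 0.203).

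*Jchain* in liver had 2.16, 0.509, 1.64 and 1.76 at 5 months and 11.8, 3.81, 2.55, 10.7 and 24.9 at 20 months. Every older liver was above every young one, over a wide range. The ratio of the means was 7.08, and the log2 change was 1.92 (SE 0.51, limma adjusted p = 0.0261). *Mzb1* went from 0.318, 0.145, 0.285 and 0.160, at most 5 reads each, to 0.967, 1.25, 0.583, 2.61 and 2.31. It was under the filter in limma, its ages did not overlap, and its exact two-sided permutation p was 0.0159. *Tnfrsf13c*, at 1 to 4 reads in the young livers and 4 to 19 in the older ones, had a permutation p of 0.0952, and *Tnfrsf17* was at 0 in the 4 young livers and at 0 to 3 reads in the older ones, where 3 reads are a value of 0.150 to 0.240.

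The liver calls also depended on single samples. Of the 6 members tested with all samples, 3 passed without mouse A, and 2 each without mouse B or C, while 3, 2 and 3 passed without replicates 17, 19 and 74. Mouse D was the highest young liver for 5 of 8 members and mouse B the lowest for 6. In the same livers the T cell list summed to 3.42 to 7.28 at 5 months and 7.16 to 25.1 at 20 months, the macrophage list to 249 to 449 and 271 to 711, and the red cell list to 664 to 842 and 953 to 1257. Whether blood or other leukocytes took part in the members' values was not tested.

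**Figure D4:**
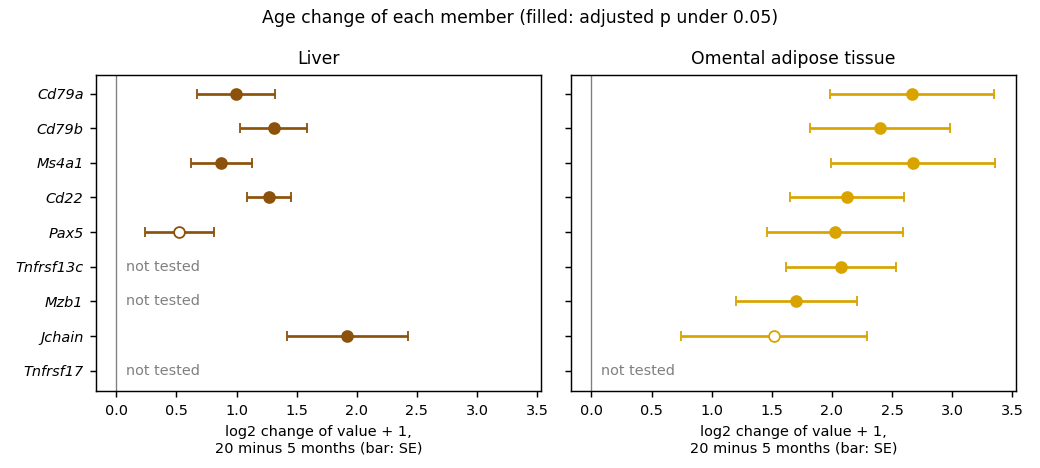
Points give the limma log2 change of value + 1 from 5 to 20 months with its SE for each member in liver (left) and omental adipose tissue (right), filled where the adjusted p was under 0.05. Every tested member lies above 0, and only Pax5 in liver and Jchain in adipose tissue are open.

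In skeletal muscle the members were at few reads at both ages and no change passed a test adjusted over all genes. None of the 9 passed the filter, so limma gave no test, edgeR and DESeq2 with the same filter tested none either, and in limma without the filter 0 of 9 passed, where 6.82% of the 22100 genes tested were called in either direction. At an unadjusted p under 0.05, 1 of the 9 passed there, *Mzb1* (log2 difference -0.38, limma adjusted p = 0.0717). The highest value of any member in the 9 muscle samples was 2.72, for *Jchain* in mouse D. *Jchain* had 0.615, 0.322, 0.235 and 2.72 at 5 months and 0.522, 0.332, 0.289, 1.84 and 0.570 at 20 months, with 1 sample in each group far above the others. *Cd22* had 0.154, 0.403, 0.704 and 1.05 against 0.196, 0.332, 0.362, 0.661 and 0, and *Cd79a* 0.0768 to 0.767 against 0.0665 to 0.735, both at no more than 15 reads. Only 2 of the 9 means, those of *Ms4a1* and *Tnfrsf17*, were higher at 20 months, and in no member did all older samples lie above the young ones, as they did for 8.63% of the 12720 genes that passed the filter. *Ms4a1* had 0, 0, 0.157 and 0.348 at 5 months and 0.587, 0.465, 0.217, 0.441 and 0.0713 at 20 months. Of its 5 older samples 3 lay above every young one, and the mean was 2.82 times higher, at 0.126 against 0.356 (exact two-sided permutation p = 0.127). *Mzb1* was the 1 member with an exact two-sided permutation p under 0.05 (p = 0.0317), with 1.23, 0.967, 0.626 and 0.767 at 5 months against 0.326, 0.399, 0.506, 0.661 and 0.356, a mean 0.501 times as high on 5 to 16 reads per sample. Mouse D was the highest young muscle for 6 of 8 members and replicate 59 the highest older one for 5.

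Whether the age change differed between tissues was tested in a single limma fit of all 27 samples over 15572 genes. Between adipose tissue and muscle, 7 of the 8 members tested had a larger rise in adipose tissue, where 8.34% of all genes did. No member passed the filter in muscle alone. Among the 7, *Tnfrsf13c* reached 1 in no sample outside older adipose tissue and entered the fit only through it. Its call is thus no support for a larger rise of the members as a group. The difference was 2.77 on the log2 scale for *Cd79a* (SE 0.68, limma adjusted p = 0.00918), 2.52 for *Cd79b* (SE 0.60, 0.00748), 2.41 for *Ms4a1* (SE 0.65, 0.0154) and 2.38 for *Cd22* (SE 0.47, 0.00220). For *Pax5* it was 2.33 (SE 0.60, limma adjusted p = 0.0122), for *Mzb1* 2.09 (SE 0.50, 0.00755) and for *Tnfrsf13c* 2.12 (SE 0.43, 0.00272). These 7 calls stood in each of the 27 fits that left out a sample. The fit gives each gene 1 variance for all groups, although their spread differed. On the log2 scale the SD of *Cd79a* was 1.47 in older adipose tissue and 0.296 in older muscle. The p-values can thus understate the spread in adipose tissue, where no member's rise passed without mouse B. With a pseudocount of 0.1 *Ms4a1* did not pass (limma adjusted p = 0.130), and in edgeR on the recovered reads neither *Ms4a1* (adjusted p = 0.353) nor *Tnfrsf13c* (0.0601) did. *Jchain*, at 1.64 (SE 0.88), did not pass (limma adjusted p = 0.213).
Between liver and adipose tissue the age change of only 1 of 8 members differed by this test, that of *Tnfrsf13c*, with a liver minus adipose difference of -1.65 on the log2 scale (SE 0.43, limma adjusted p = 0.0117), where 6.97% of genes rose less or fell more. *Tnfrsf13c* was under 1 in every sample of the other 5 groups and entered this fit only through older adipose tissue, the group where it is high. With a pseudocount of 0.1 its limma adjusted p was 0.0813, and by edgeR it was 0.257. With the mouse as a block, *Ms4a1* also passed (difference -1.80, adjusted p = 0.0496), and without adipose replicate 37 there were 7 of 8. Between liver and muscle 1 of 8 passed, *Cd22*, with a larger rise in liver (1.52, SE 0.47, limma adjusted p = 0.0269), where 9.35% of genes did. With the mouse as a block, *Mzb1* passed too (1.37, adjusted p = 0.0467).

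At 5 months, 3 of 8 members were lower in liver than in adipose tissue, a share near the 39.9% of all genes that were. The liver minus adipose difference on the log2 scale was -3.57 for *Jchain* (SE 0.66, limma adjusted p = 2.75e-05), -1.17 for *Mzb1* (SE 0.37, 0.00638), and -1.13 for *Cd22* (SE 0.35, 0.00526), and with the mouse as a block that of *Cd79b* also passed (-0.93, adjusted p = 0.0477). Against muscle, adipose tissue was higher in 4 of 8, *Jchain* by 4.02 (SE 0.66, limma adjusted p = 6.31e-06), *Cd22* by 1.66 (SE 0.35, 0.00016), *Cd79b* by 1.18 (SE 0.45, 0.0209) and *Cd79a* by 1.16 (SE 0.51, 0.0436), a share near the 41.9% of genes that were higher. Liver and young muscle differed in 0 of 8 by limma, and in 0 of 8 at an unadjusted p under 0.05, where 72.9% of genes differed. The highest member mean was 1.52 in young liver and 0.972 in young muscle, both of *Jchain*. At such values this scale can hardly show a difference, so the 0 of 8 is no sign that the tissues were alike. With a pseudocount of 0.1 *Mzb1* was lower in liver (limma adjusted p = 0.00646).
At 20 months adipose tissue was above liver in 8 of 8 members, with liver minus adipose differences of -1.84 (*Pax5*) to -3.17 (*Jchain*) on the log2 scale, with 38.8% of genes lower in liver, and above muscle in 8 of 8, by 2.45 (*Pax5*) to 5.66 (*Jchain*), with 42.1% of genes higher. Among the 8, *Tnfrsf13c* entered the fit only through older adipose tissue, where it is high, so its calls are no support for the members as a group. The median of all genes was itself higher in adipose tissue than in muscle, by 0.18 at 5 months and 0.17 at 20 months. Liver was above muscle in 5 of 8, *Jchain* by 2.49, *Cd22* by 2.05, *Cd79a* by 1.72, *Cd79b* by 1.68 and *Mzb1* by 0.75, with 39.2% of genes higher. The labels name another extraction kit for liver than for the other tissues, whereas the study's methods name a single kit for all samples. If the kits differed, kit and tissue cannot be told apart in the comparisons with liver.

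Within older adipose tissue the members ranged widely in level. Per kilobase of annotated exon, *Jchain* averaged 41.6 ± 24.3 (SD, n = 5), *Cd79a* 17.8 ± 11.9, *Cd79b* 14.5 ± 9.26 and *Mzb1* 8.15 ± 5.41. *Cd22* stood at 4.72 ± 2.71 per kilobase, *Tnfrsf13c* at 3.04 ± 2.44, *Ms4a1* at 2.91 ± 2.63, *Pax5* at 0.934 ± 0.682 and *Tnfrsf17* at 0.585 ± 0.307. Neighbours in this order differed by less than the larger SD of the pair. That SD is the spread among samples in which most members were low or high together. It therefore does not measure how sure the order of 2 genes is.

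*Jchain* and the B cell genes did not keep 1 proportion. In adipose tissue the ratio of the *Jchain* to the *Cd79a* value was 19.4, 8.42, 12.3 and 16.7 in the young mice and 3.02, 5.29, 3.01, 7.72 and 4.64 in the older samples, so that the ages did not overlap. In liver it was 0.611 to 2.83 at 5 months and 0.731 to 6.21 at 20 months, and there the ages overlapped. The ratio was chosen after its values were seen and is given without a test.

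**Figure D5:**
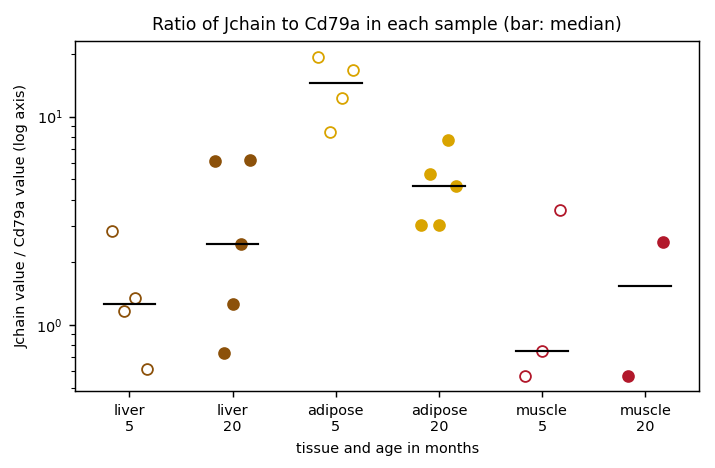
The value of Jchain divided by that of Cd79a, on a log axis, in each sample with over 3 reads of Cd79a, by tissue and age in months, with a bar at the median. In adipose tissue the young mice lie at 8.42 to 19.4 and the older samples at 3.01 to 7.72.

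Other genes of the B lineage, 30 that are not members, were listed for comparison. In adipose tissue 27 were tested, 18 rose and 0 fell, where 9.75% of all genes rose and 9.35% fell. The median log2 change was 1.60 beside 0.01 over all genes. Among those with the largest changes were *Spib*, a transcription factor of the lineage (2.34, SE 0.58, limma adjusted p = 0.0292), *Cd180*, a Toll-like receptor relative (2.33, SE 0.44, 0.0148), and *Cd72*, an inhibitory receptor (2.24, SE 0.33, 0.00932). In liver 17 were tested, 9 rose and 0 fell, where 10.03% of all genes rose and 9.79% fell. The median was 0.82 beside 0.00. The rises were led by *Cd72* (1.86, limma adjusted p = 0.0211), *Cd180* (1.47, 0.0113), the adaptor *Blnk* (1.39, 0.00992) and *Ciita*, the master regulator of MHC class II genes (1.37, 0.0333). In muscle, where 9.13% of the 12720 genes tested rose and 10.1% fell, 5 were tested, 0 rose and 2 fell, *Bach2* (-1.53, limma adjusted p = 0.00163) and *Ebf1* (-0.65, 0.0146), and *Ebf1* is also a factor of fat and stromal cells.
The 5 genes of the table whose profile over the 27 samples lay nearest to the members' mean profile included *H2-Ob*, *Spib*, *Blk* and *Ptprcap*, and all 5 were at a root mean square distance of 0.224 to 0.346 on the log2 scale. The members themselves lay at 0.318 (*Cd79b*) to 0.447 (*Pax5*), except *Tnfrsf17* at 1.09 and *Jchain* at 1.27, which departed most. H2-Ob, a subunit of the MHC class II modulator of B cells, averaged 0.756 ± 0.679 and 2.14 ± 1.26 in liver at 5 and 20 months, 2.19 ± 0.866 and 12.99 ± 8.09 in adipose tissue, and 0.400 ± 0.174 and 0.460 ± 0.193 in muscle.

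Of 15 further genes of antibody secretion, 14 were tested in adipose tissue, 5 rose and 1 fell, with a median log2 change of 0.46. Over all genes tested, 9.75% rose and 9.35% fell in adipose tissue. In liver 10.03% rose and 9.79% fell, and in muscle 9.13% rose and 10.1% fell. *Tnfrsf13b*, the receptor TACI for BAFF and APRIL, rose by 1.67 (limma adjusted p = 0.0123), *Sdc1*, a proteoglycan of plasma cells and of epithelium, by 1.14 (0.0459), the signal peptidase subunit *Sec11c* by 0.97 (0.0429) and *Edem1*, of protein quality control in the endoplasmic reticulum, by 0.58 (0.0258). *Xbp1*, the factor that expands the secretory machinery, was the 1 that fell (-0.53, limma adjusted p = 0.0409). In liver 12 were tested, *Slamf7* rose (1.16, limma adjusted p = 0.0266) and *Ell2* (-0.73, 0.0179) and *Pim2* (-0.54, 0.0337) fell, with a median of -0.15. In muscle 10 were tested, 0 rose and *Edem1* (-2.14, limma adjusted p = 0.000917), *Irf4* (-1.02, 0.0328) and *Xbp1* (-0.61, 0.0314) fell. Most of these genes are also used by the main cells of the tissues, and *Sdc1* averaged 572 in young liver. *Irf4*, which drives plasma cell formation and is also made by fat cells, was at 148, 358, 13.7 and 7.51 in young adipose tissue and at 6.15 to 20.6 in the older one, with mice A and B far above the rest, and did not pass there (log2 difference -2.14, SE 1.01, limma adjusted p = 0.142).

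Antibody genes themselves gave no level. All 12 listed antibody constant genes, such as *Ighm*, *Igha* and *Igkc*, were listed at 0 in each of the 27 samples, and so were the 120 heavy chain, 102 kappa and 3 lambda variable segments of the table. T cell receptor segments were alike, with 112 alpha and 22 beta variable segments and 3 constant genes at 0 throughout. Of 21546 genes annotated as protein coding, 3017 were at 0 in all samples. With *Jchain* at up to 6184 reads in a sample, the zeros of the antibody genes are given as what the table lists and not as absence of antibody RNA.

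Signals for B cell survival and homing were listed with 14 genes. Over all genes tested, 9.75% rose in adipose tissue, 10.03% in liver and 9.13% in muscle. The shares that fell were 9.35%, 9.79% and 10.1%. In adipose tissue 9 of the 14 were tested and 1 rose, near the share over all genes. It was *Ltb*, a subunit of lymphotoxin (1.86, limma adjusted p = 0.0436). In liver 5 were tested and 2 rose, among them *Ltb* (1.52, limma adjusted p = 0.0427). The BAFF gene *Tnfsf13b* averaged 1.94 ± 0.495 and 3.12 ± 0.863 in adipose tissue (limma adjusted p = 0.0974), and the gene of the B cell attractant *Cxcl13* 11.3 ± 2.40 and 8.97 ± 5.57 (0.354). In muscle 4 were tested and *Cxcl13* fell (-1.75, limma adjusted p = 0.00822). Of 9 germinal centre genes, *S1pr2* (0.90, limma adjusted p = 0.0312) and *Fas* (0.76, 0.0344) rose among 4 tested in liver, and 0 of 6 passed in adipose tissue and 0 of 4 in muscle. Of 12 cell cycle genes, 8 rose among the 12 tested in adipose tissue, among them *Mki67* (1.36, limma adjusted p = 0.0399), *Top2a* (1.22, 0.0477), *Tpx2* (1.19, 0.0343) and *Aurkb* (1.03, 0.0387). In liver 1 of 4 rose, *Top2a* (0.92, 0.0328), and in muscle 2 of 4, *Tpx2* (1.17, 0.00432) and *Aurka* (0.86, 0.0286). These genes are used by every dividing cell.

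The lists of other cells moved as follows, beside 9.75% of all genes rising and 9.35% falling in adipose tissue. In liver 10.03% rose and 9.79% fell, and in muscle 9.13% rose and 10.1% fell. In adipose tissue 3 of 11 T cell genes rose, *Cd8a* (1.82), *Cd8b1* (1.59) and *Cd2* (1.37), as did 2 of 2 NK and cytotoxic genes, *Nkg7* (1.51) and *Eomes* (1.28), while of 7 macrophage genes *Adgre1* rose (1.58) and *Cd163* (-1.79) and *Mertk* (-0.61) fell. Of 6 dendritic cell genes *Itgax* rose (2.26) and *Zbtb46* fell (-0.89), and of 3 neutrophil genes *S100a8* rose (1.03). The red cell list had 2 of 5 fall, the near-identical *Hba-a1* (-1.18) and *Hba-a2* (-1.26), the platelet list 2 of 3, *Ppbp* (-1.17) and *Pf4* (-0.76), and the mesothelium list 2 of 5, *Krt19* (-1.43) and *Lrrn4* (-0.89). None of 5 adipocyte, 4 hepatocyte, 5 muscle fibre or 4 lymphoid stroma genes passed there by limma. Of the exocrine pancreas list, *Cela1* rose in adipose tissue (1.78) and liver (0.93), while in adipose tissue Pnlip and Amy2b were at 0 and Prss2, Ctrb1 and Cpa1 at most at 0.291.
In liver, *Cd8a* (1.17) and *Lck* (1.01) rose among 3 T cell genes, *Lyz2* (1.73) among 8 macrophage genes, *Itgax* (1.79) among 3 dendritic cell genes and *Hbb-bs* (0.87), *Alas2* (0.72), *Hbb-bt* (0.64) and *Hba-a1* (0.37) among 5 red cell genes. *Cps1*, a urea cycle enzyme, fell (-2.14) among 5 hepatocyte genes and *Cidec* (-1.79) among 2 adipocyte genes, and none of 2 NK, 3 neutrophil, 2 platelet, 4 mesothelium or 3 lymphoid stroma genes passed. In muscle, 4 of 7 macrophage genes fell, *Cd68* (-1.82), *Cd163* (-1.35), *Mrc1* (-1.06) and *Csf1r* (-1.03), as did 3 of 5 red cell genes, *Alas2* (-1.23), *Hba-a1* (-0.90) and *Hba-a2* (-0.87), and 2 of 2 lymphoid stroma genes, *Cxcl13* and *Pdpn* (-1.01). None of 1 T cell, 2 dendritic cell, 5 neutrophil, 3 platelet, 1 mesothelium, 5 adipocyte, 5 hepatocyte or 5 muscle fibre genes passed in muscle.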

How the data were processed

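Tissue and age in the labels defined the groups. The authors made the deposited signal values with CLC Genomics Workbench from aligned reads, as 1 value for each gene of each sample in a table headed CPM. The genome annotation used there is not given in the sources used here. Because a sample's values add up to 559419 to 1395315, they are CPM divided by a factor of each sample, although the design had assumed CPM. The test planned for CPM was kept. Dividing by the value of 1 read gave whole reads for 100% of the values, within 0.02, and 0 of 48 pairs of samples of a group were identical (chi-square per degree of freedom at least 9.21). No replicates were pooled.

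Within a tissue, limma 3.58.1 (R 4.3.3, trend in the variance) was run on log2(value + 1) for genes that reached a value of 1 in 4 or more of the 9 samples. Differences between tissues came from 1 fit of 27 samples, with 1 variance per gene shared by all groups. Single members were compared by exact two-sided permutation of log2(value + 1) over all 126 splits of 4 against 5 samples (scipy 1.17.1), of which 0.0159 is the smallest p. The procedure was tested on simulated reads. Mouse numbers pair the tissues at 5 months, since the same mouse gave each (correlation of deviations -0.017 to 0.294, mean 0.136, and a consensus of 0.101), and the mouse as a block was an alternative. The others were no filter, a mean value of 5 or more, a pseudocount of 0.1 or 0.5, quantile normalization, median-of-ratios factors, sample weights, no variance trend, a joint fit of every tissue, each sample left out, and count tests on the recovered reads by DESeq2 1.42.0 and by edgeR 4.0.16. The count test of edgeR called 2578 genes in liver, 2692 in adipose tissue and 2453 in muscle, and limma 2508, 2674 and 2451.

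Named were all 9 members, *Mlx*, up to 4 genes per list with the largest change among those past the threshold, and the 5 genes nearest to the members' mean profile, a profile being log2(value + 1) less its mean over the 27 samples. Variable segments were to be named by share, but all were at 0. The members and lists were chosen with earlier results of these data known. Genes named outside this rule were chosen after their values were seen. Of the genes this rule named, 2 are not reported here. Promoters are from RefSeq on GRCm38.p6.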

Additional observations from a re-analysis of the deposited data

Results flagged for a closer look

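In 4 of the 54 sets of samples, 1 member in 1 group, a muscle sample stood apart from the rest of its group by Dixon's criterion, which chance meets in about 1 set in 20. The sets of *Tnfrsf17* in young liver and young muscle, at 0 in every sample, could not be checked. *Jchain* had 2.72 in mouse D (39 reads) where the next young muscle had 0.615, and 1.84 in replicate 59 (25 reads) where the next older muscle had 0.570. *Tnfrsf13c* had 0.279 in mouse D, from 4 reads, and *Tnfrsf17* had 0.220 in replicate 59, from 3 reads, with the next samples at 0. Where all other samples are tied at 0, as for these, the rate given for chance does not hold.

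By the test of the difference itself, 9 age changes differed between tissues. On the log2 scale, with the other tissue subtracted, the difference was -1.65 for *Tnfrsf13c* in liver against adipose tissue and 1.52 for *Cd22* in liver against muscle. In adipose tissue against muscle it was 2.77 for *Cd79a*, 2.52 for *Cd79b*, 2.41 for *Ms4a1*, 2.38 for *Cd22*, 2.33 for *Pax5*, 2.09 for *Mzb1* and 2.12 for *Tnfrsf13c*. *Tnfrsf13c* entered the fit only through older adipose tissue, where it is high, so its differences are no support for the members as a group.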

How the results depend on the processing

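Of 2454 member values recomputed under an alternative or without a sample, 2320 kept their direction and side of the threshold, 88 fell short of it, 37 newly passed and 9 changed sign, none of the 9 past the threshold. The count of members past the threshold was 3 without the filter on low values in both liver and adipose tissue, with 9 tested. In liver it was 2 under quantile normalization and 1 with a mean of at least 5, where 1 member was tested. For the age change in liver against adipose tissue it was 2 when each mouse was a replicate block and 0 with a pseudocount of 0.1 or by edgeR. For liver against muscle it was 2 with the block, with a pseudocount of 0.1 or by edgeR, and 0 without the filter. For adipose tissue against muscle it was 7 without the filter, 6 with a pseudocount of 0.1 and 5 by edgeR. For young liver against young muscle it was 1 with a pseudocount of 0.1. The block changed no other call than the 3 given with the results.

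Leaving out single samples gave counts of 2 to 5 in liver, 0 to 7 in adipose tissue, 1 to 7 for liver against adipose tissue, 0 to 3 for liver against muscle and 7 to 7 for adipose tissue against muscle. Those between tissues rest on 1 variance per gene shared by all groups. For tissues at 5 months the counts were 3 to 4, 0 to 1 and 2 to 5 in the same order, and at 20 months 4 to 7 for liver against muscle. The sign changed for *Mzb1* in liver against adipose tissue (0.10 with a pseudocount of 0.1, 0.29 by edgeR) and, without single samples, for *Jchain* in the same comparison (-0.18 to 0.99), for *Cd79b* (-0.025 to 0.50) and *Pax5* (-0.43 to 0.030) in young liver against muscle and for *Pax5* in young adipose tissue against muscle (-0.14 to 0.37). The causes were not tested.

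Over all genes, counts in adipose tissue were 8456 with sample weights, 5270 with all samples in 1 fit, 4348 by DESeq2 and 1525 without the filter, in liver 4454 with sample weights, and in muscle 1507 without the filter. *Tnfrsf17* had at most 22 reads in a sample and no member over 39 in muscle, so that counting error is large there.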
